A study of Homo sapiens with 6 samples.

Results

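Metallothioneins were followed across 6 transcriptome libraries of MCF10A, a non-tumorigenic human mammary epithelial cell line. The genes were taken by symbol (MT1E, MT1F, MT1G, MT1M, MT1X and MT2A), and all 6 were among the 20802 genes measured. The libraries comprised 2 replicates each of parental cells (wt), of cells stably overexpressing the fluorescent protein eGFP as the vector control, and of cells stably overexpressing GIRK1, the potassium channel subunit encoded by KCNJ3. The GIRK1 cells carried its coding sequence in a plasmid that also encodes eGFP, so eGFP, the vector and the antibiotic selection were shared by the eGFP and GIRK1 groups and absent from wt. Both transfected lines were sorted on eGFP fluorescence, and no source used here describes them as single clones.

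Metallothioneins are small cysteine-rich proteins that bind zinc, copper and cadmium through their thiol groups, buffer free zinc and detoxify excess metal. The transcription factor MTF1 senses zinc and induces their genes through metal response elements, and glucocorticoids also induce MT2A. In epithelial cells MT2A and several MT1 genes are generally the expressed forms, whereas MT3 is best known from brain and MT4 from squamous epithelium.

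The 6 genes lie within 76.0 kb of chromosome 16 (GRCh38, GENCODE annotation), all protein coding. MT2A occupies chr16:56608199-56609497, MT1E chr16:56625475-56627112, MT1M chr16:56632233-56633986, MT1F chr16:56657694-56660698 and MT1X chr16:56682424-56684196 on the plus strand, and MT1G chr16:56666731-56668065 on the minus strand. Each has 3 exons and a coding sequence of 183 bases without the stop codon, in which 20 of 61 codons encode cysteine. The coding sequences of the 4 genes with more than 1 read in any library are shown because their likeness bears on how reads are told apart. They are written 5′ to 3′ and without introns from GENCODE transcripts, and capitals mark the bases that differ from MT2A.
MT2A: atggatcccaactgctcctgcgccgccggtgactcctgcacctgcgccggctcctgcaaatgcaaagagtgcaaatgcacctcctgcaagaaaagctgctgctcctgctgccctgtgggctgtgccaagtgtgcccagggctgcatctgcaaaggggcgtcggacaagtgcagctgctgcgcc
MT1E: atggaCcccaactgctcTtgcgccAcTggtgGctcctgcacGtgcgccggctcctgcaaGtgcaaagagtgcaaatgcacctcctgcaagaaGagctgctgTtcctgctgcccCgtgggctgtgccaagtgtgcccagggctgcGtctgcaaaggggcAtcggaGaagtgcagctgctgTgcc
MT1F: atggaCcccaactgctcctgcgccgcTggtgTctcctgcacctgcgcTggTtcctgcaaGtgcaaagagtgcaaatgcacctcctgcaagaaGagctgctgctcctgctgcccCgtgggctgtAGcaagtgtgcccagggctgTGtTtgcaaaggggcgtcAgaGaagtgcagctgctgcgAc
MT1X: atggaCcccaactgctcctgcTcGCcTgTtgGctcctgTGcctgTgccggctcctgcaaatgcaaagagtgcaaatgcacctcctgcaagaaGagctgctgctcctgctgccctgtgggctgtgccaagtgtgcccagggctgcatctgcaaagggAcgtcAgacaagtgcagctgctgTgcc
MT1E and MT1X each differed from MT2A at 14 positions and MT1F at 16, and identity between any pair of the 6 coding sequences ranged from 88.5% to 95.1%. Each gene was measured by 1 amplicon, of 104 to 109 bases for the 6 members. The longest stretch that any pair of their transcripts shared exactly was 96 bases, between MT1G and MT1X, which was shorter than each amplicon. The amplicons were not placed on the genome here, and counts of individual paralogs remain uncertain to the extent that reads of one can map to another.

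Total reads per library ranged from 2506120 to 16040556, so 3 reads, taken here as the detection floor, corresponded to 0.187 to 1.20 RPM (reads per 1000000 reads of the library). KCNJ3 was at 0 reads in both eGFP libraries and in wt replicate 2 and at 217 and 355 RPM in the GIRK1 libraries, at least 651-fold higher in their mean than the floor of the eGFP libraries. The library labelled wt replicate 1 held 48 KCNJ3 reads and differed from all others. Its summed luminal markers, with none of the 8 at 0, reached 13717 RPM against 390 to 493 RPM in the other 5 libraries, where ESR1, PGR, TFF1 and KRT19 were at 0. Its summed basal markers were at 348 RPM against 8203 to 15742 RPM, with KRT6A, KRT14, KRT17 and TP63 at 0. TP63, a defining basal marker, was listed at 0 reads in all 6 libraries. Values of this library are therefore given apart. The eGFP pair was also uneven, with an SD of 0.622 for the log2 ratio of its libraries across 9212 genes against 0.325 for the GIRK1 pair.

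MT2A, the most widely expressed metallothionein, carried nearly all metallothionein reads. Its level was 5712 RPM in wt replicate 2, 32170 and 10226 RPM in the eGFP replicates 1 and 2, and 4522 and 4135 RPM in the GIRK1 replicates 1 and 2. Both GIRK1 libraries lay below both eGFP libraries and below wt replicate 2, and eGFP replicate 1 stood 3.15-fold above the other eGFP library. MT2A ranked 2nd and 5th among all genes in the eGFP libraries, 9th in wt replicate 2, and 19th and 20th in the GIRK1 libraries. The 6 members together took 3.32% and 1.06% of all reads in the eGFP libraries, 0.614% in wt replicate 2, and 0.487% and 0.430% in the GIRK1 libraries, and MT2A made up 92.9% to 96.8% of these reads in the 5 libraries. In bulk RNA, fewer cells expressing a gene and less RNA of it per cell cannot be told apart.

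MT1E, a closely related isoform, was measured at 416 RPM in wt replicate 2, 1034 and 392 RPM in the eGFP libraries, and 340 and 163 RPM in the GIRK1 libraries. Its eGFP replicate 2 lay just below wt replicate 2, at 0.944 of that level, and only 1.15-fold above GIRK1 replicate 1, so the groups did not overlap but came close. MT1F was far lower, with 119 reads in wt replicate 2, 93 and 72 reads in the eGFP libraries, and 37 and 9 reads in the GIRK1 libraries. These counts corresponded to 7.42 RPM, to 18.1 and 7.04 RPM, and to 3.33 and 0.870 RPM. The order of the libraries was the same as for MT1E, although exact (Clopper-Pearson) 95% intervals were wide for the lowest value, 0.398 to 1.65 RPM in GIRK1 replicate 2. These intervals and the floor cover counting error only.

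MT1X did not separate the groups. It had 34 reads (2.12 RPM) in wt replicate 2, 12 and 5 reads (2.34 and 0.489 RPM) in the eGFP libraries, and 23 and 3 reads (2.07 and 0.290 RPM) in the GIRK1 libraries. Within each transfected line the first replicate was higher than the second, by 4.79-fold in eGFP and 7.14-fold in GIRK1, so the spread between replicates exceeded the 1.20-fold difference between the eGFP and GIRK1 means. MT1G was at 0 reads in all 6 libraries and MT1M had 1 read, in eGFP replicate 1, which leaves both at or under the detection floor and gives no fold.

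**Figure D1:**
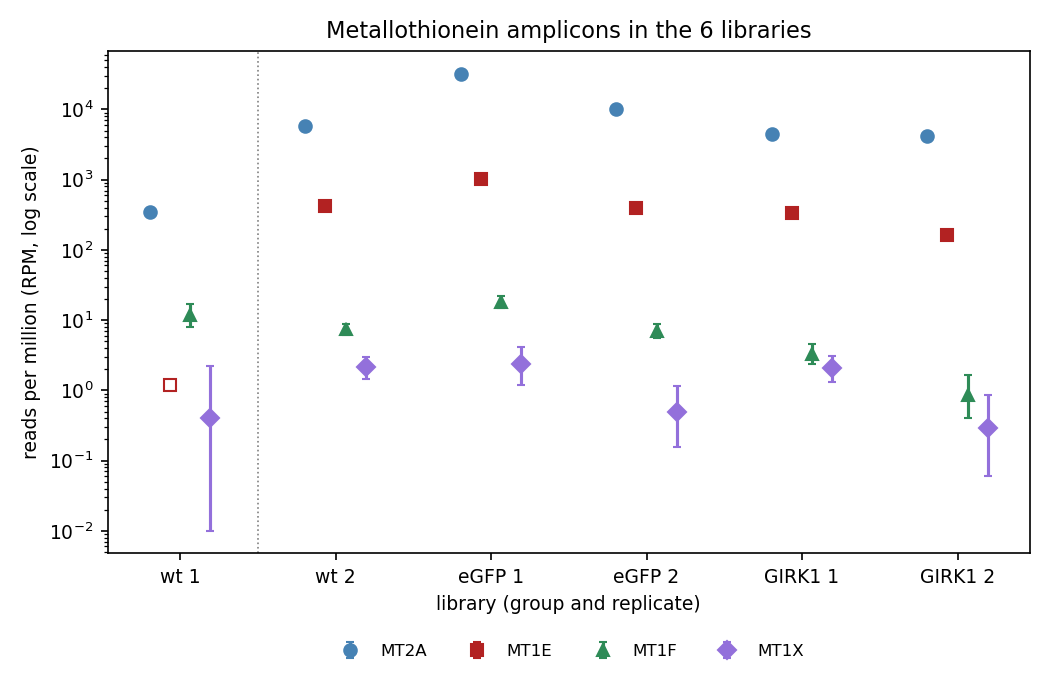
RPM (log axis) of MT2A, MT1E, MT1F and MT1X in each library, with bars for exact 95% counting intervals and an open symbol at the floor of 3 reads where no read was found. MT2A spans 4135 to 32170 RPM and MT1E 163 to 1034 RPM in the 5 libraries right of the dotted line, with eGFP 1 highest and GIRK1 2 lowest for both.

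Amplicons of the 6 members have nearly equal lengths, so their RPM levels may be set side by side, although primers can differ in efficiency. In each of the 5 libraries the order was MT2A, MT1E, MT1F, MT1X. MT1F and MT1X, the neighbours at the low end, had overlapping counting intervals in both GIRK1 libraries, where MT1X spanned 1.31 to 3.11 RPM and 0.0598 to 0.847 RPM, and MT1F in GIRK1 replicate 1 spanned 2.35 to 4.59 RPM. The ratio of MT2A to MT1E reads was 31.1 and 26.1 in the eGFP libraries, 25.4 in GIRK1 replicate 2, 13.7 in wt replicate 2 and 13.3 in GIRK1 replicate 1. These ratios did not follow the groups, since GIRK1 replicate 2 lay near the eGFP libraries and GIRK1 replicate 1 near wt replicate 2.

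The library labelled wt replicate 1 had a different metallothionein profile. MT2A was at 346 RPM, rank 431 among its genes, and MT1E was at 0 reads, which allows up to 1.20 RPM. MT1F was at 12.0 RPM, above wt replicate 2, and MT1X had 1 read. The members together took 0.0359% of its reads.

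The comparison of GIRK1 with eGFP asks which transcripts differ when the channel subunit is overexpressed. MT2A averaged 21198 ± 15517 RPM (SD, n = 2) in eGFP and 4328 ± 273 RPM (SD, n = 2) in GIRK1, a 4.90-fold difference of the means. MT1E averaged 713 ± 454 and 252 ± 125 RPM (SD, n = 2 each), a 2.84-fold difference, and MT1F 12.6 ± 7.85 and 2.10 ± 1.74 RPM, a 5.99-fold difference. None of these passed the test after adjustment over all 11279 genes tested. The edgeR quasi-likelihood test gave log2 fold changes of -2.36 (SE 0.54, adjusted p = 0.0948) for MT2A, -1.58 (SE 0.55, adjusted p = 0.194) for MT1E and -2.60 (SE 0.73, adjusted p = 0.138) for MT1F. For MT1X the log2 fold change was -0.14 (SE 1.07, adjusted p = 0.952), and MT1G and MT1M did not pass the filter on low counts.

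Thus 0 of the 6 members were called by edgeR, against a background of 1.52% of tested genes in either direction and 0.745% lower in GIRK1. At an unadjusted p below 0.05, 3 members were lower (MT2A, MT1E and MT1F) and none higher, where 10.8% of tested genes were lower and 19.2% differed in either direction. Both GIRK1 libraries lay below both eGFP libraries for the same 3 members, as for 25.2% of tested genes, and also below wt replicate 2, as for 19.5%. Summed fibroblast markers, with COL1A2 and PDGFRA at 0 of 4 listed, were at 9.95 and 8.21 RPM in eGFP, 13.0 RPM in wt replicate 2, and 31.6 and 33.2 RPM in GIRK1. Of the 3 leukocyte markers listed, PTPRC and CD3E were at 0, so their sum was CD14 alone. CD14 was at 21.7 and 20.9 RPM in eGFP, 7.11 RPM in wt replicate 2, and 15.7 and 11.3 RPM in GIRK1. The part of the fibroblast markers and of CD14 in the metallothionein values was not tested. The labels do not state that replicates were separate cultures, so p-values measure only the spread between these libraries, which may be technical.

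The calls depended on the test and on the libraries kept, and the size of the differences on the eGFP pair. DESeq2, edgeR without a filter on low counts and edgeR with the replicate number as a block each called MT2A, MT1E and MT1F lower. In either direction these settings called 694 of 11279, 881 of 14893 and 590 of 11279 tested genes. With eGFP replicate 1 left out, the lone eGFP library was assumed to vary like the GIRK1 pair, so effect sizes alone are given here. The log2 fold change of MT2A then shrank to -1.23, that of MT1E to -0.63 and that of MT1F to -1.72. With eGFP replicate 2 left out instead, the 3 values were -2.997, -2.15 and -3.19. Over the alternatives that kept both eGFP and both GIRK1 libraries, the adjusted p of MT2A ranged from 2.67e-05 to 0.934. That of MT1E ranged from 0.0175 to 0.975 and that of MT1F from 0.00515 to 0.934. None of the 3 genes changed direction under any alternative.

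The study's own kind of rule, at least 2-fold between mean RPM values with a coefficient of variation (CV) below 0.7 in each pair, was applied to these files as a description without a p-value. MT1E met it as lower in GIRK1, with CVs of 0.636 in eGFP and 0.498 in GIRK1, and 3.28% of the 20802 genes met it in that direction. MT2A missed it through its eGFP pair, whose CV was 0.732, and MT1F through its GIRK1 pair, whose CV was 0.828. Without the CV limit all 3 genes met the fold criterion. On raw counts in place of RPM, MT2A met the rule and MT1E did not, with 270 genes lower and 1270 higher in place of 682 and 627. With wt replicate 2 as the reference none of the 3 met the whole rule, and MT1F missed it through its GIRK1 CV.

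MT2A, MT1E and MT1F were lower in both GIRK1 libraries than in the parental library, none past the test. Against wt replicate 2, MT2A was 1.26- and 1.38-fold lower in the GIRK1 replicates, a fitted log2 fold change of -0.38 (SE 0.60, adjusted p = 0.940). MT1E was 1.22- and 2.55-fold lower (log2 fold change -0.71, SE 0.63, adjusted p = 0.865), and MT1F 2.23- and 8.53-fold lower (log2 fold change -1.79, SE 0.79, adjusted p = 0.687). MT1X gave -0.81 (SE 1.13, adjusted p = 0.932). No member was called by edgeR, against 0.034% of 11779 tested genes called lower, none was lower at an unadjusted p below 0.05, against 3.62%, and DESeq2 called none. This fit rested on 1 wt library, assumed to vary like the other groups.

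MT2A was higher in both eGFP libraries than in the parental library, whereas MT1E and MT1F were higher in eGFP replicate 1 alone. Against wt replicate 2, MT2A was 5.63-fold higher in eGFP replicate 1 and 1.79-fold higher in eGFP replicate 2, a log2 fold change of 1.98 (SE 0.68, unadjusted p = 0.0220, adjusted p = 0.953). MT1E was 2.49-fold higher in eGFP replicate 1 and at 0.944 of the wt level in replicate 2, and MT1F was 2.45-fold higher and at 0.948. The fitted values were 0.87 (SE 0.66) for MT1E, 0.82 (SE 0.80) for MT1F and -0.65 (SE 1.19) for MT1X. No gene at all was called by edgeR in this comparison, 0.0% of 11779, with 418 at an unadjusted p below 0.05 and 5 called by DESeq2, none of them a member. MT2A was the 1 member higher at an unadjusted p below 0.05, where 2.15% of tested genes were. Without eGFP replicate 2, MT2A fitted at 2.61 and MT1E at 1.44, while without eGFP replicate 1 MT2A fitted at 0.84 and MT1E at -0.08. Neither gene was past the threshold under any alternative of this comparison that kept both eGFP libraries. The 3 comparisons share libraries, so their values are set side by side and not correlated.

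**Figure D2:**
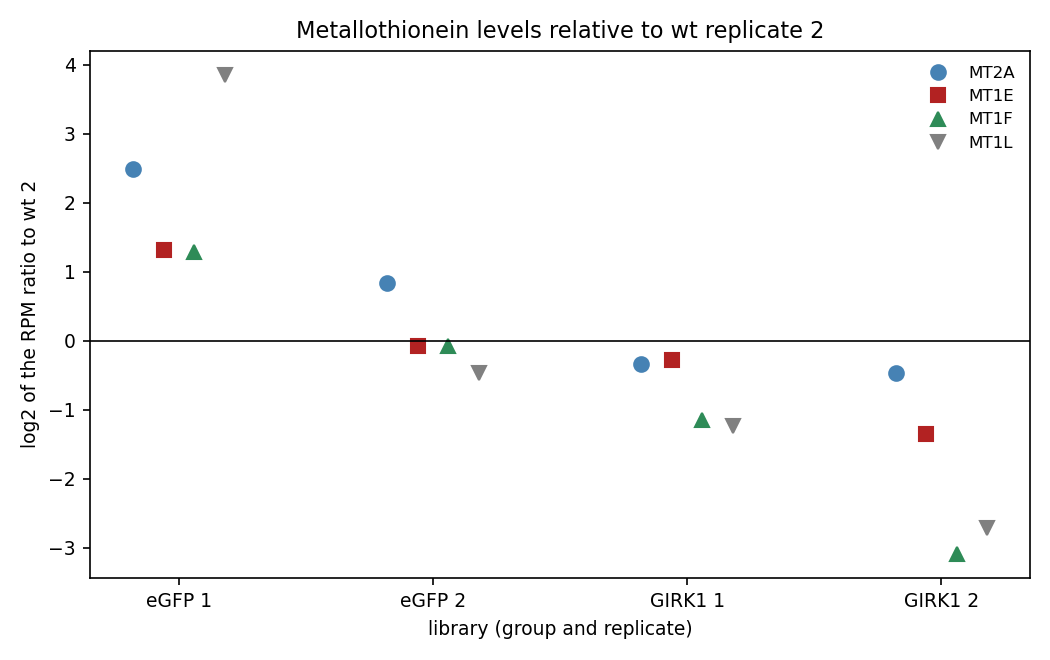
Log2 of the RPM ratio of each eGFP and GIRK1 library to wt replicate 2 for MT2A, MT1E, MT1F and the pseudogene MT1L, with the line at 0 marking the wt 2 level. All 4 genes are above it in eGFP 1 and below it in both GIRK1 libraries, and in eGFP 2 only MT2A is above it, at 1.79-fold.

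**Figure D3:**
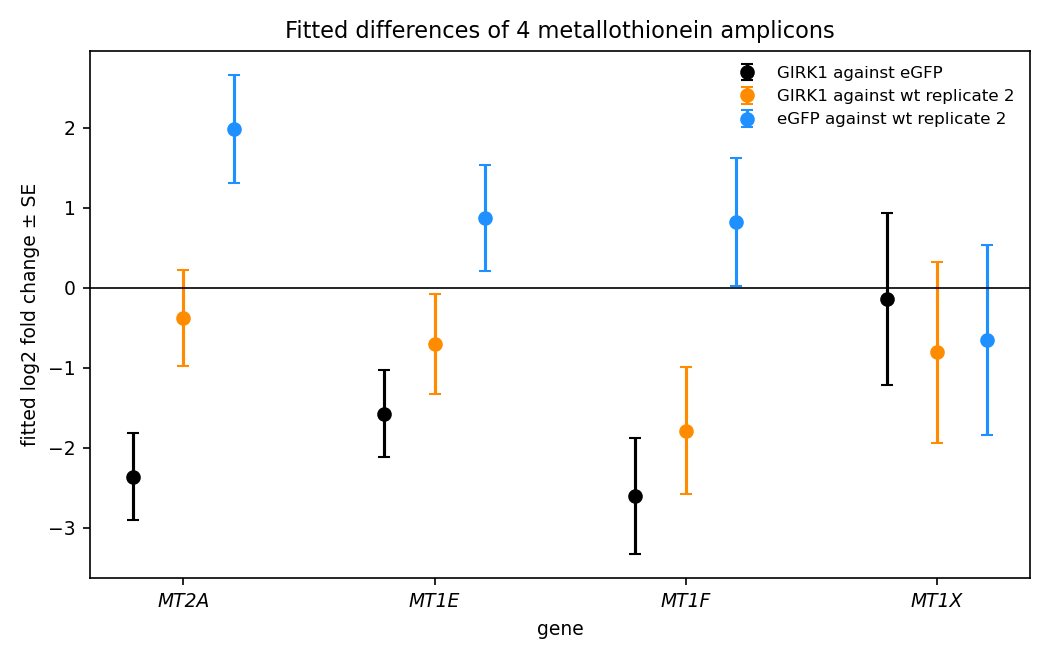
Fitted log2 fold changes of the 4 tested metallothioneins with standard errors as bars, for GIRK1 against eGFP (4 libraries) and for both lines against wt replicate 2 (5 libraries). The GIRK1 against eGFP values of MT2A, MT1E and MT1F lie between -2.60 and -1.58, and the bars of MT1X cross 0 in all 3 comparisons.

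Of the other genes of the metallothionein locus, MT1L alone had more than 2 reads in any library. MT1L, a transcribed pseudogene at chr16:56617476-56618818, had 204 reads in wt replicate 2, 943 and 94 reads in the eGFP libraries, and 60 and 20 reads in the GIRK1 libraries, and none in wt replicate 1. Its level in eGFP replicate 1, 184 RPM, was 20.0-fold that of eGFP replicate 2, and eGFP replicate 2 was 1.70- and 4.75-fold above the GIRK1 libraries. The fitted log2 fold change of GIRK1 against eGFP was -4.79 (SE 1.35, adjusted p = 0.139). MT1A, MT1B, MT1H and MT1DP had at most 2 reads in any library, and MT1JP, MT3, MT4 and the pseudogene MT1IP, which was added after the files were seen, had none. The reads of MT1L cannot be assigned to the pseudogene with certainty, since its transcript shares stretches of up to 43 bases with MT1E.

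The deposited coverage values allowed a check of the amplicons themselves. Over 713 genes with at least 1000 reads in each of the 5 libraries, the median share of forward-strand reads was 48.9%, with 5% to 95% of genes between 37.9% and 60.9%. MT2A had 86.5% forward reads and no gene was higher, and MT1E had 77.1% with 2 genes higher. MT1F, with 330 reads over the 5 libraries, was balanced at 49.1%, and 5 of 77 MT1X reads were forward. Reads counted as covering the amplicon made up 67.5% of the MT1X reads, against 94.5% for MT1F. For the 713 genes the median was 94.0%, with 5% to 95% of genes between 90.1% and 95.8%. Whether MT1X reads came from a paralog was not tested. The number of reads overlapping the MT2A amplicon exceeded the number assigned to it by 23.4%, against a median of 0.559%, with 1 gene higher, and the excess for MT1E was 6.16%.

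The forward share of MT2A ranged from 83.0% in wt replicate 2 to 88.9% in eGFP replicate 1. It was 86.8% in eGFP replicate 2, and 83.8% and 87.1% in the GIRK1 libraries. The eGFP to GIRK1 ratio of MT2A was 4.90 from all assigned reads, 5.07 from forward reads, 3.89 from reverse reads and 4.75 from overlapping reads. For MT1E the ratio was 2.80 from forward and 2.96 from reverse reads. The part of the strand imbalance in the levels was not tested.

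**Figure D4:**
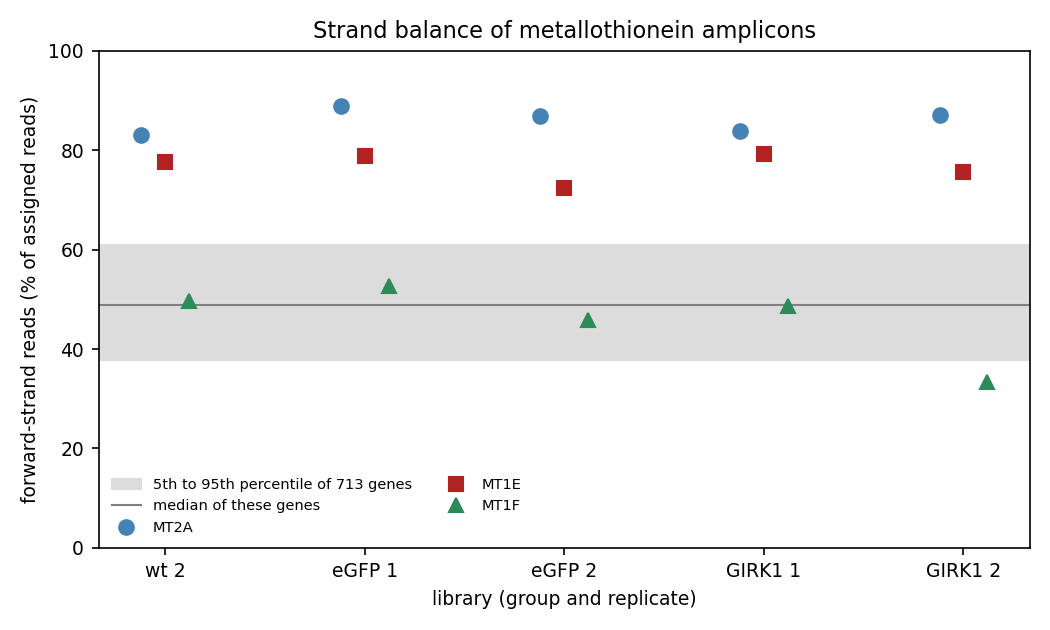
Share of forward-strand reads among the reads assigned to MT2A, MT1E and MT1F in the 5 libraries, with a grey band for the range that holds 5% to 95% of 713 well-covered genes and a line at their median of 48.9%. MT2A and MT1E lie above the band in every library, and MT1F lies inside it except in GIRK1 2, where it had 9 reads.

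Genes that handle zinc and copper lay on both sides of 0. Of 24 zinc transporters 16 were tested in GIRK1 against eGFP and edgeR called 0, with 1 higher and 1 lower at an unadjusted p below 0.05 and none called by DESeq2. The higher one was SLC30A7, a zinc transporter of the secretory pathway, at 31.2 and 44.3 RPM in eGFP and 64.0 and 64.6 RPM in GIRK1 (adjusted p = 0.160). The lower one was SLC39A13, an intracellular zinc transporter, at 17.1 RPM in wt replicate 2, 54.2 and 23.5 RPM in eGFP, and 19.4 and 17.9 RPM in GIRK1 (adjusted p = 0.228), highest in eGFP replicate 1 as MT2A was. The median log2 fold change of the list was 0.22, beside 0.01 over all tested genes. SLC30A1, the zinc exporter of the plasma membrane and itself an MTF1 target, was at 106 RPM in wt replicate 2, 114 and 184 RPM in eGFP, and 92.8 and 114 RPM in GIRK1 (log2 fold change -0.56, SE 0.26, adjusted p = 0.308). Its eGFP libraries stood in the opposite order to those of MT2A. Of 12 copper-handling genes, all tested, 0 were called by edgeR, 1 was higher and 1 lower unadjusted, and the median was -0.35. The lower one was ATOX1, the copper chaperone of the secretory pathway, at 277 and 235 RPM in eGFP and 148 and 125 RPM in GIRK1 (adjusted p = 0.105), which DESeq2 called. The higher one was SLC31A1, the copper importer, at 41.2 and 76.3 RPM in eGFP and 110 and 130 RPM in GIRK1 (adjusted p = 0.148).

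MTF1, the zinc-sensing activator of metallothionein genes, was at 15.5 RPM in wt replicate 2, 8.78 and 18.4 RPM in eGFP, and 16.7 and 22.7 RPM in GIRK1 (log2 fold change 0.49, SE 0.37, adjusted p = 0.493). In the list of 14 metal and heat shock response genes 11 were tested, with 0 called by edgeR or DESeq2, 1 higher and 1 lower unadjusted, and a median of -0.03. The unadjusted ones were SQSTM1, a selective autophagy receptor, at 596 and 1078 RPM in eGFP and 1644 and 1475 RPM in GIRK1, and HSPB1, a small heat shock protein, at 614 and 400 RPM in eGFP and 319 and 314 RPM in GIRK1. Several heat shock genes were higher in eGFP replicate 1 than in every other of the 5 libraries, as the metallothioneins were. HSPA8, a constitutive chaperone, was at 1772 RPM there, 414 RPM in eGFP replicate 2, 531 RPM in wt replicate 2, and 1021 and 873 RPM in GIRK1. The inducible chaperone HSPA1A was at 435 and 44.8 RPM in eGFP, 68.0 RPM in wt replicate 2, and 170 and 111 RPM in GIRK1, and its near-identical copy HSPA1B at 134 and 15.5 RPM in eGFP, with reads that may be shared between the pair. HSPH1, a co-chaperone, was at 85.4 and 37.4 RPM in eGFP. Unlike MT2A, these 4 genes had GIRK1 libraries above eGFP replicate 2. HSPB1, at 329 RPM in wt replicate 2, was also highest in eGFP replicate 1. Its GIRK1 libraries lay below eGFP replicate 2 and wt replicate 2, as those of MT2A did. The part of what sets eGFP replicate 1 apart in the metallothionein values was not tested. HMOX1, which encodes heme oxygenase and responds to metals and oxidants, stayed at 2.73 RPM or below in the 5 libraries and was not tested in this comparison.

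The glucocorticoid receptor and its targets also lay on both sides of 0. NR3C1, the glucocorticoid receptor, was at 57.1 and 61.1 RPM in eGFP and 47.1 and 48.0 RPM in GIRK1 (log2 fold change -0.35, SE 0.20, adjusted p = 0.370). FKBP5, a receptor co-chaperone and classical target, was at 217 and 376 RPM in eGFP and 434 and 440 RPM in GIRK1 (log2 fold change 0.53, SE 0.27, adjusted p = 0.330). TSC22D3, another classical target, was at 73.9 and 107 RPM in eGFP and 135 and 127 RPM in GIRK1 (log2 fold change 0.49, SE 0.22, adjusted p = 0.293). Of the list of 12 genes 11 were tested, 0 were called by edgeR, 1 was lower unadjusted and the median was 0.38. That gene was HSD11B1, the enzyme that regenerates active glucocorticoid, with 17 and 18 reads in eGFP and 0 in GIRK1, at least 9.06-fold lower against a floor of 3 reads per library, and DESeq2 called it.

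Genes flanking the cluster on chromosome 16 were mostly at or above their eGFP level. Of 10 listed neighbours 7 were tested, 0 were called by edgeR, 1 was higher unadjusted, 2 had a negative log2 fold change and the median was 0.26. The higher one, NLRC5, a regulator of MHC class I genes, was at 5.27 and 4.01 RPM in eGFP and 14.8 and 18.6 RPM in GIRK1 (adjusted p = 0.0595), and DESeq2 called it. Against wt replicate 2, edgeR called 0 genes of these 5 lists, with NLRC5 the 1 gene at an unadjusted p below 0.05, and the list medians lay between -0.01 and 0.43.

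**Figure D5:**
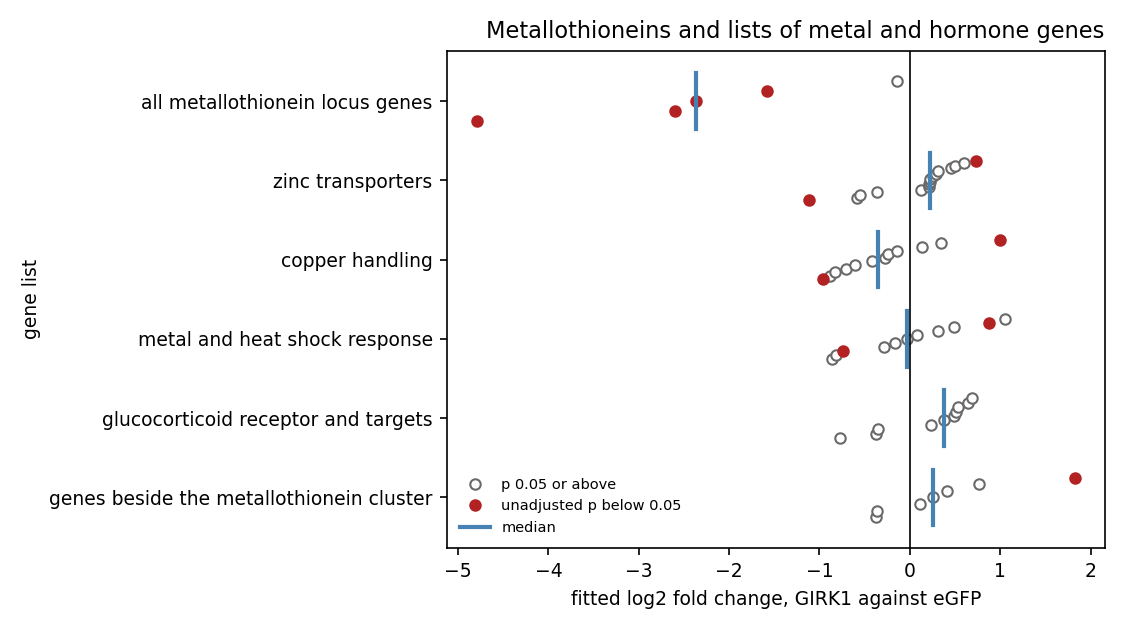
Fitted log2 fold changes of GIRK1 against eGFP for each tested gene of the metallothionein locus and of 5 gene lists, with filled points for an unadjusted p below 0.05 and a bar at each list's median, with the point of HSD11B1 left out of the drawing because its GIRK1 libraries were at 0, though its list's median counts it. The tested metallothionein locus genes have a median of -2.36, and the medians of the other lists lie between -0.35 and 0.38.

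The members' mean pattern, which not every member followed, was compared with that of 9284 genes that averaged at least 50 reads. The mean of the members' centred log2(RPM + 1) was 0.95 in eGFP replicate 1, 0.06 in wt replicate 2, 0.00 in eGFP replicate 2, and -0.20 and -0.81 in the GIRK1 libraries. The 5 genes with the smallest root mean square difference from it over the 5 libraries were MICALL2 (0.0905), STRA13 (0.0965), CAV1 (0.101), LMNB1 (0.105) and MAP2K3 (0.107). MICALL2 was at 5.86 RPM in wt replicate 2, 14.2 and 6.65 RPM in eGFP, and 5.58 and 3.19 RPM in GIRK1. LMNB1, which encodes the nuclear lamina protein lamin B1, was at 34.2 RPM, 51.3 and 30.6 RPM, and 26.2 and 16.4 RPM. MAP2K3, a kinase upstream of p38, was at 30.1 RPM, 65.1 and 27.3 RPM, and 26.6 and 18.4 RPM. The profile averaged over all 6 members, including MT1G and MT1M at or near 0. MT2A departed from it, with eGFP replicate 2 at 1.79-fold the level of wt replicate 2. The eGFP mean of MT2A was 4.90-fold its GIRK1 mean, whereas MICALL2 averaged 10.4 RPM in eGFP and 4.39 RPM in GIRK1.

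The promoter letters of 2 members could be read from RefSeq (GRCh38.p14), in windows from 250 bases before to 50 bases after the annotated start. The core of the metal response element, TGCACNC or TGCGCNC, matched 8 times in the window of MT2A (5 on the plus and 3 on the minus strand) and 4 times in that of MT1X (3 and 1). Of 35116 promoter windows of that length 29.6% held at least 1 match, 0.601% held at least 4 and 0.0199% at least 8. GENCODE places the start of the MT2A gene further upstream, so this window lies within that annotated gene. A match is a description of these letters. MT1X with 4 matches did not exceed 2.34 RPM in any library, while MT2A was among the most abundant transcripts of the 5 libraries. A count of 8 was not particular to MT2A. MT1H, a locus gene outside the members, also had 8 matches (5 on the plus and 3 on the minus strand), with at most 1 read in any library. MT1B and MT4 had 3 matches each, with at most 1 read in any library for MT1B and 0 reads for MT4.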

How the data were processed

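A total of 6 Ion AmpliSeq Transcriptome libraries (2 each of wt, eGFP and GIRK1) were analysed, prepared per the labels from 10 ng of RNA and sequenced on an Ion S5 XL. File names mark the GIRK1 libraries with another tag than the other 4, and what the tag means is not given. If it marks a sequencing batch, GIRK1 against eGFP or wt cannot be told apart from it. The authors mapped reads with the Ion Torrent suite to the AmpliSeq human transcriptome reference and deposited, for each library, raw read counts per amplicon with strand and overlap counts, and RPM, the reads per 1000000 reads of the library. Software versions were not given in the sources used here. The 10 spike-in amplicons, at 0 reads, were set aside.

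Counts were tested with edgeR 4.0.16 (quasi-likelihood, TMM, filterByExpr, Benjamini-Hochberg over all genes tested, threshold 0.05) in R 4.3.3. GIRK1 was compared with eGFP on 4 libraries, and both with wt replicate 2 on 5 libraries, without wt replicate 1. DESeq2 1.42.0 and other settings were alternatives. The fits were tested on simulated data. SE is the absolute log2 fold change divided by the square root of F. Counting intervals are exact Clopper-Pearson 95% intervals.

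The members and lists were chosen with earlier results of these data known. Named genes were the 6 members, the other metallothionein locus genes in the files, MTF1, SLC30A1, NR3C1, FKBP5, TSC22D3 and HMOX1, any list gene with an adjusted p below 0.05 (there was none), the 5 genes of most similar pattern, and KCNJ3. List genes at an unadjusted p below 0.05, HSPA8, HSPA1A, HSPA1B and HSPH1 were named after their values were seen. The lists were zinc transporters, copper handling, metal and heat shock response, glucocorticoid receptor and targets, cluster neighbours, and cell type markers. Endothelial markers summed to 0.0900 to 0.399 RPM over the 6 libraries, with CDH5 and VWF at 0 in each.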

Additional observations from a re-analysis of the deposited data

Results flagged for a closer look

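KCNJ3 was at 19.2 RPM in the library labelled wt replicate 1, which was left out of the comparisons as reported and entered only the alternative with all 6 libraries, whereas wt replicate 2 and both eGFP libraries had 0 reads. In the same library MT1E was at 0 reads and MT2A at 346 RPM.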

How the results depend on the processing

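In GIRK1 against eGFP 172 of 11279 tested genes were called, with 0 metallothioneins. The number called was 881 of 14893 without a filter on low counts and 694 of 11279 with DESeq2. With the replicate block it was 590 of 11279, and these 3 settings each named 3 metallothioneins. The number was 111 with at least 10 reads in every library, 38 at an adjusted p of 0.01 and 0 with all 6 libraries (606 unadjusted). Leaving out 1 library gave 89 to 2933 genes and 0 to 3 metallothioneins. For GIRK1 against wt replicate 2 (27 genes) the counts were 133 without a filter, 16 with at least 10 reads, 126 with DESeq2, 77 with the replicate block, 0 with all 6 libraries (648 unadjusted) and 34 to 576 without 1 library. For eGFP against wt replicate 2 (0 genes) they were 6 without a filter, 5 with DESeq2, 1 with the replicate block and 5 to 1268 without 1 library, with 0 to 2 metallothioneins. The 2-fold rule gave 1309 genes, 3157 at 1.5-fold and 2501 without a CV limit. It named 3 metallothioneins without a CV limit or with a population SD, and 0 with wt replicate 2 as reference, and on raw counts it named MT2A in place of MT1E.

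Without 1 library, MT1X in GIRK1 against eGFP ranged from -2.16 to 1.28, turning positive without eGFP replicate 1 and, at 0.58, without GIRK1 replicate 2. With all 6 libraries, where the reference is the mean of both wt libraries and not wt replicate 2 alone, MT1E and MT2A in GIRK1 against wt turned to 0.29 and 0.54. In eGFP against wt replicate 2, MT1F turned to -0.15 with the replicate block. Without 1 library, MT1E ranged from -0.083 to 1.44 and MT1F from -0.077 to 1.41, both lowest without eGFP replicate 1, and MT1X from -2.09 to 0.26, positive without eGFP replicate 2. The cause was not tested for the others. Scaling, GC correction and the 5-library fit changed no metallothionein's direction or call. The labels do not state whether equal replicate numbers mark libraries handled together. Replicate differences of eGFP and GIRK1 correlated at 0.194 across 9212 genes, which does not decide it. MT2A, MT1E, MT1F and MT1X were each higher in replicate 1 than in replicate 2 of both transfected lines. Depth limits MT1F and MT1X, with 9 and 3 reads in GIRK1 replicate 2.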
